A study of Mus musculus with 60 samples.

Results

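The clones described here are 100 spotted cDNAs whose signal stood below its starting level in every condition from 6 h to 36 h of treatment in mouse erythroleukemia cells. They were taken from 22656 clones in the authors' deposited table. Of these, 14535 had 3 or more values in each of 15 conditions. The log2 ratio of RNA after treatment over RNA before it was averaged per condition, first within each dye orientation and then over both. At 6 h the mean over the 3 chemicals was below -0.3 for 1477 clones, and for 743 of them the mean at 36 h was at most 0.5 times the 6 h mean (on the log2 scale). These 743 were ranked by the largest of their 12 values at 6, 12, 24 and 36 h, lowest first, and the first 100 were taken. The members were thus selected on their log2 ratios from 6 h on, by the value in their weakest condition. These ratios are given as a description, without a test.

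The study followed T-3-Cl-2-0.fl, a mouse erythroleukemia line that the labels call highly inducible to differentiate, under 3 chemicals for 1, 6, 12, 24 or 36 h. Cells received trichostatin A (TSA) at 30 nM, hexamethylene bisacetamide (HMBA) at 5 mM or dimethyl sulfoxide (DMSO) at 1.5%. Each of the 15 conditions was set against RNA from the same line before treatment, on 4 arrays with 2 colours. Per the labels, these 4 arrays are technical replicates: Cy5 marked the RNA after treatment on replicates 1 and 2, and Cy3 marked it on the other two. In a DMSO label the percentage lacks its decimal point. A condition is therefore 1 sample of RNA, and an SD over its arrays measures technical spread. No untreated culture of the same age was labelled, so time in culture and the chemical cannot be told apart. Sources used here do not say whether 1 extract of RNA before treatment served all arrays, so the conditions may share it.

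Mouse erythroleukemia cells are red cell precursors transformed by a virus and held at an immature stage. When given an inducer they commit to terminal maturation, build haemoglobin and stop dividing. DMSO and HMBA are small polar inducers, and TSA inhibits histone deacetylases, the enzymes that remove acetyl groups from histones. Transcripts that sustain the immature, dividing state, such as those of the transcription factors MYC and MYB, are known in this system to be lowered within hours of induction. Whether any of the 100 clones represents such a gene is not known here. The files give a clone identifier alone, and 0 of the 22656 identifiers matched the reference gene table. Genes, clone sequences and the erythroid identity of the cells could thus not be examined. The 2 highest ranked clones are given by identifier and the others by rank. Several clones can represent 1 gene.

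As a group, the 100 clones stood at 60.0% of their starting level after 6 h and 58.6% after 12 h, by the median of their means over the chemicals. The later levels were 63.2% (24 h) and 63.8% (36 h). On the log2 scale these 4 medians were -0.74, -0.77, -0.66 and -0.65. Over all 14535 clones the medians were -0.0025, -0.00069, -0.015 and 0.0052 at the same times. The shortfall was thus in place by 6 h and remained of similar size to 36 h, as the rule required. In bulk RNA of this kind, fewer cells of a type and less RNA per cell cannot be told apart.

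**Figure D1:**
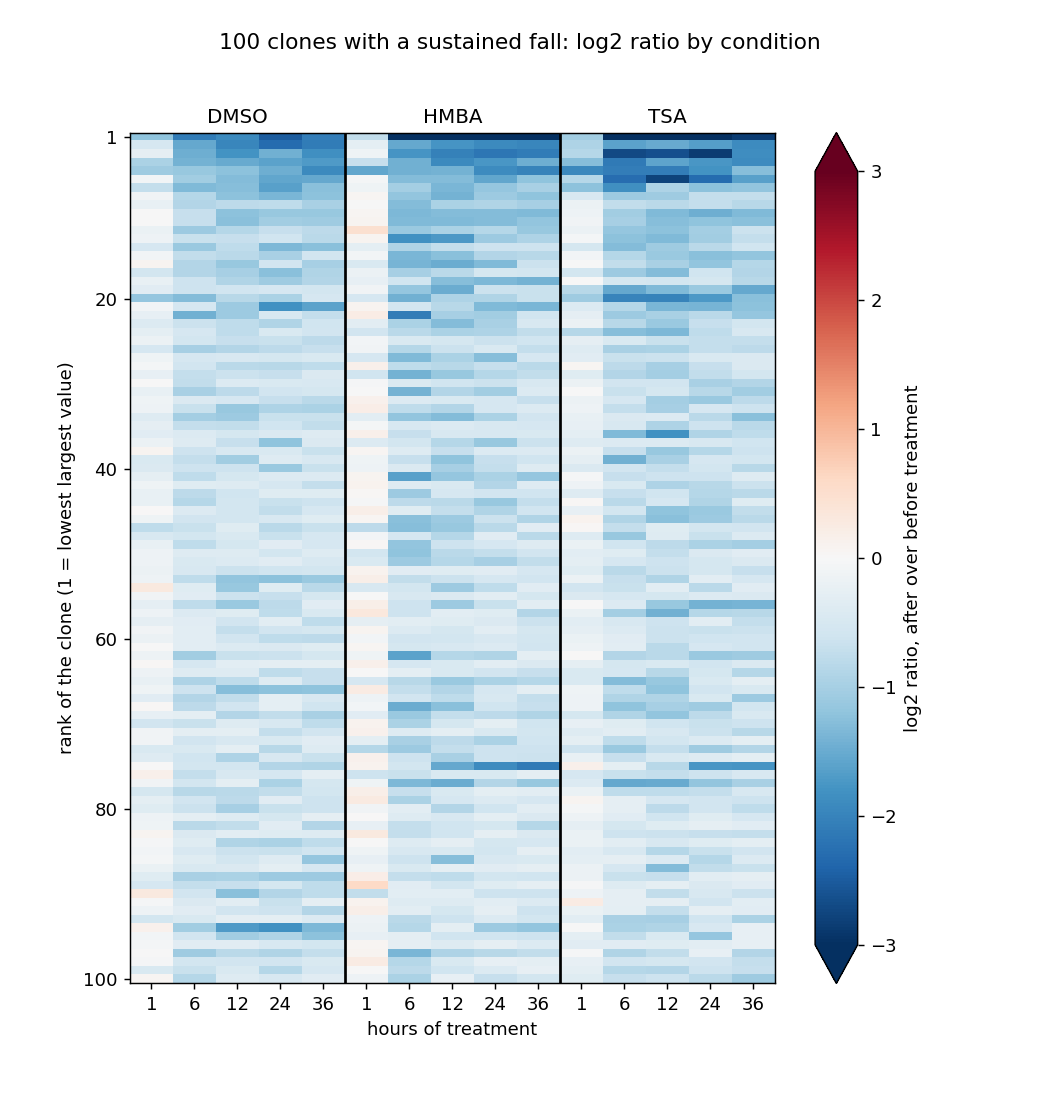
Log2 ratio after over before treatment of the 100 clones (down the page, by rank) in each of the 15 conditions (across, hours of treatment within each chemical), as colour, with values beyond 3 in size drawn at the end of the scale. The columns from 6 h on are below 0 throughout, as the rule required, while the 1 h columns are paler and hold values on both sides of 0.

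The depth of the shortfall varied widely among the clones. The mean of the 12 later values had a median of -0.70, the quartiles were -0.87 and -0.59, and the range was -2.87 to -0.36. This corresponds to 13.6% of the starting level for the lowest clone and 78.1% for the highest. The mean was at most -1 for 17 clones and above -0.5 for 10. In 6 clones, those ranked 1 to 6, every one of the 12 values was at most -1. Of the sum of squares of the 12 later values per clone around the overall mean, 64.9% lay between clones, 13.6% in the way clones differed by chemical and 8.74% in the way they differed by time. The chemical itself accounted for 0.801% and the time itself for 0.629%, and 11.3% was left. The rule ranked clones by the largest of these values and limited the 36 h mean, which curbs differences by chemical and time in advance. With 1 extract per condition, the 13.6% and the 8.74% include technical spread.

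At the edge of the group the clones were not set apart from those left out. The 5 clones ranked 96 to 100 had largest values between -0.257 and -0.253. The 5 ranked 101 to 105 lay between -0.253 and -0.25, so the gap was smaller than the technical spread. Of the 743 clones that met both limits, 406 had all 12 later values below 0, so the 100 are the lower end of a longer series.

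With DMSO the medians of the clones at 6, 12, 24 and 36 h were -0.64, -0.70, -0.67 and -0.67. With HMBA they were -0.77, -0.80, -0.64 and -0.61 at these times. With TSA they were -0.70, -0.82, -0.71 and -0.69. The lowest median was at 12 h with each chemical. At 36 h the median was nearer to 0 than at 6 h with HMBA and TSA, for TSA by little, and slightly further from it with DMSO. At least 1 log2 unit below the starting level at 6 h were 15 clones under DMSO, 36 under HMBA and 26 under TSA, where 0.764%, 1.32% and 1.04% of all clones tested lay that low. After 12 h DMSO left 23 clones that low (0.784% of all clones), HMBA 30 (1.08%) and TSA 34 (0.805%). After 24 h DMSO left 20 (0.722%), HMBA 21 (0.351%) and TSA 26 (0.66%). At 36 h these numbers were 18, 16 and 22, and the shares of all clones were 0.488%, 0.413% and 0.406%. The rule used these values, so the difference from the shares of all clones is no finding.

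**Figure D2:**
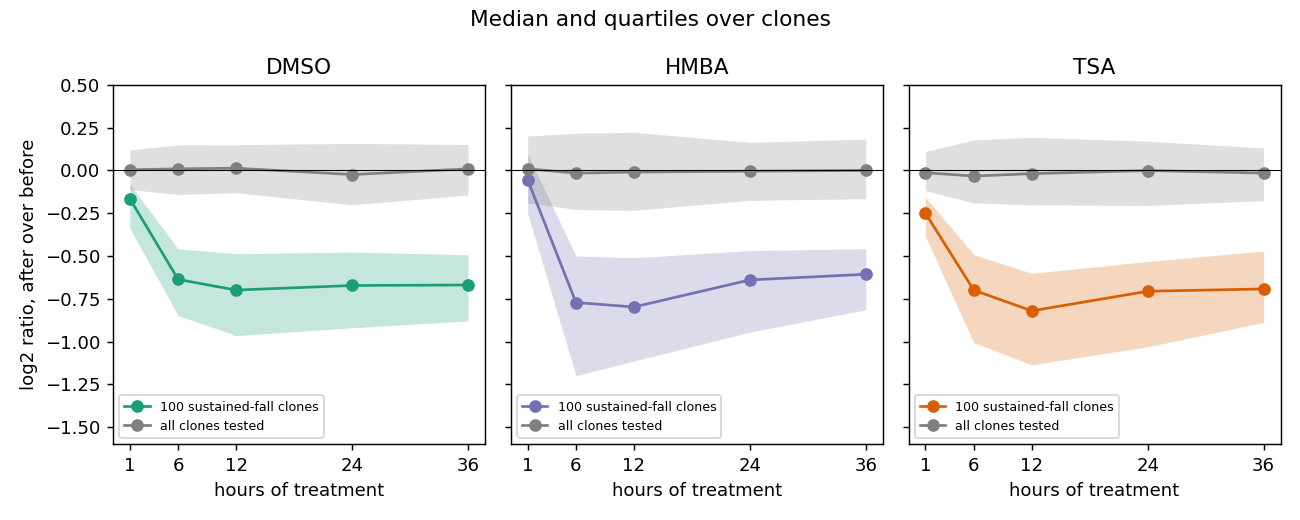
Median log2 ratio (points) and quartiles (bands) against hours of treatment for the 100 clones and for all 14535 clones tested, with a panel for each chemical. The medians of the 100 clones lie between -0.82 and -0.61 from 6 h on and between -0.25 and -0.055 at 1 h, while those of all clones stay within 0.033 of 0.

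Individual clones followed different courses inside this group. The mean over the chemicals was lowest after 6 h for 34 clones and after 12 h for 36, and later for the others (24 h for 14, 36 h for 16). From 6 h to 36 h the mean moved by no more than 0.25 log2 units for 62 clones. It came more than 0.25 nearer to the starting level for 27 and went more than 0.25 further below it for 11. The value at 36 h was below that at 6 h for 57 clones with DMSO, 39 with HMBA and 44 with TSA. Since a condition is 1 extract, these changes between times have no replicate check.

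The clone ranked 75, which was picked out after its values were seen, went furthest down after 6 h. Its means over the chemicals at 6, 12, 24 and 36 h were -0.46, -0.97, -1.50 and -1.59. Its values for DMSO, HMBA and TSA at 36 h were -0.90 ± 0.24, -2.11 ± 0.33 and -1.76 ± 0.34 (SD, n = 4 technical arrays each). At 6 h these values were -0.56 ± 0.44, -0.55 ± 0.62 and -0.29 ± 0.05. Its rank was set by its weakest value, that of TSA at 6 h. Without normalization the deposited intensities on those 4 arrays were 185, 269, 925 and 496 after treatment. Before treatment they were 398, 588, 729 and 379. On TSA replicate 1 at 36 h the intensity after treatment was 28.2. The values of this clone thus depend in part on how the arrays were normalized. The opposite course was clearest in the clone ranked 20, also picked out afterwards, with means of -1.57, -1.25, -1.20 and -0.81 at these times. Both met the same limits, so the group holds late as well as early low points.

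The highest ranked clone, H3035B01, was also the lowest in level. On the 4 arrays of 36 h of TSA its log2 ratios were -3.21, -3.11, -2.56 and -2.50. After 36 h of HMBA they were -3.33, -3.45, -2.39 and -3.14, and after 36 h of DMSO they were -2.06, -2.24, -2.03 and -2.01. All of the HMBA and TSA arrays at 36 h were thus lower than the DMSO arrays. Over the 4 times from 6 h its mean was -3.41 with HMBA, -3.07 with TSA and -2.15 with DMSO. At 6 h it was already at -3.75 with HMBA, on 3 listed arrays, and at -3.18 with TSA. On the TSA arrays of 36 h its spot had an intensity between 122 and 650 after treatment, against 2071 to 2966 before treatment. These intensities are as deposited, without normalization. It was below 0 on all 47 arrays from 6 h on that listed it.

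H3140F01, ranked second, reached a similar level with all 3 chemicals. Its log2 ratios on the 36 h arrays were -2.03, -1.90, -1.94 and -2.50 with DMSO, -1.81, -2.03, -2.12 and -1.87 with HMBA, and -1.49, -1.56, -2.25 and -2.24 with TSA. The arrays of the 3 chemicals overlapped. Its condition values went lower with time, from 6 h to 36 h, with HMBA (-1.54, -1.77, -1.92 and -1.96). With DMSO they were -1.53, -1.96, -2.31 and -2.09, and with TSA they were -1.61, -1.50, -1.64 and -1.88. It was below 0 on 48 of 48 arrays.

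**Figure D3:**
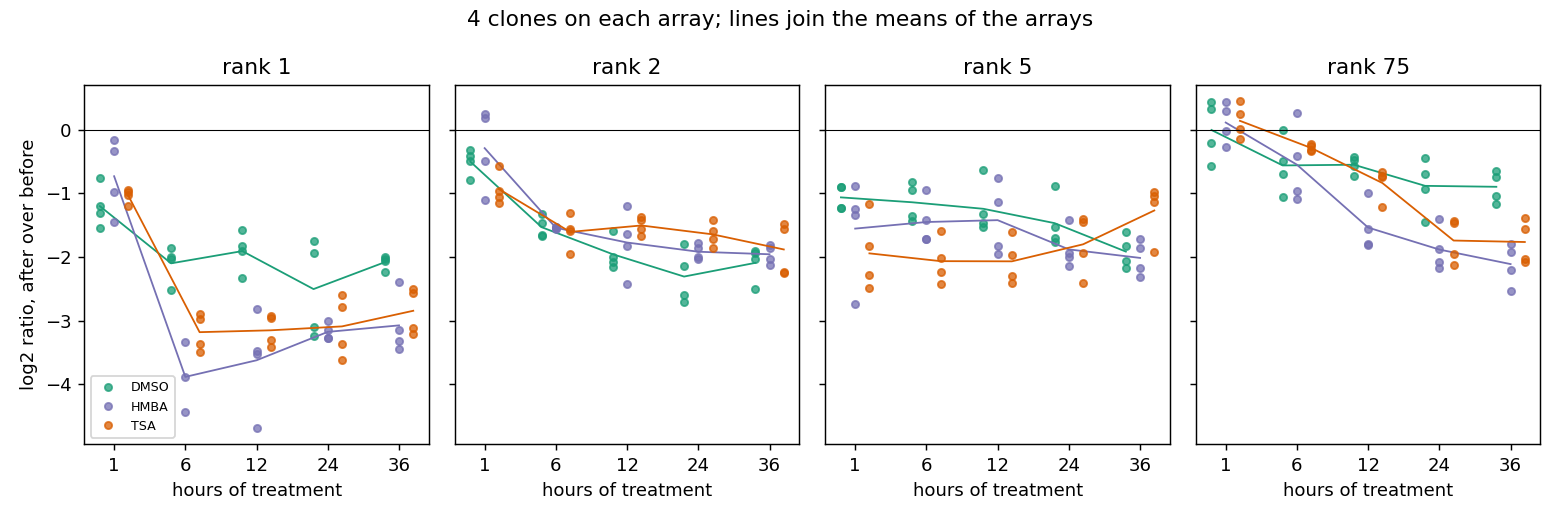
Log2 ratio on each array (points) against hours of treatment (evenly spaced) for the clones ranked 1, 2, 5 and 75, coloured by chemical, with lines through the means of the arrays. Ranks 1 and 2 are lower at 6 h than at 1 h. By condition value, rank 5 is at or below -1.06 with each chemical at 1 h already. Rank 75, by the same measure, lies near 0 at 1 h and between -2.11 and -0.90 at 36 h. Single arrays spread beyond these ranges.

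Since the rule asked for low condition means of these same arrays, the signs of single arrays are a description and largely fixed by it. Of 4768 listed values of the 100 clones from 6 h on, 175 were above 0. Every listed array was below 0 for 32 clones, 1 to 3 arrays were above 0 for 52, and more than 3 for 16. The clone with the most arrays above 0 had 13 of 48, and it was ranked 91. The median SD over the 4 arrays was 0.27 log2 units for the 100 clones and 0.31 for all clones tested. On the Cy5 arrays alone 85 of the 100 were below 0 in all 12 later conditions, and on the Cy3 arrays alone 86 were. The ratio was lower in the Cy5 than in the Cy3 orientation for 41 clones, with a median difference of 0.084 (Cy5 minus Cy3). Over all clones tested this difference was 0.041.

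The chemicals were set side by side over the 4 matched times. The mean over these times had a median of -0.73 with TSA (60.1% of the starting level), -0.69 with HMBA (62.0%) and -0.67 with DMSO (63.0%). It was lowest with DMSO for 24 clones, with HMBA for 32 and with TSA for 44. The difference HMBA minus DMSO had a median of -0.051 and quartiles of -0.24 and 0.098. TSA minus DMSO had a median of -0.068 (quartiles -0.25 and 0.088), and TSA minus HMBA had one of -0.047 (quartiles -0.19 and 0.16). Over all clones tested these medians were -0.0071, -0.015 and 0.0024.

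For each pair of chemicals, most clones did not keep the same order at all 4 times. HMBA was lower than DMSO at each of the 4 times for 20 clones, against 13.6% of all clones tested, and higher for 16, against 14%. TSA was lower than DMSO at each time for 22, against 15.7% of all clones, and higher for 9, against 10.8%. TSA was lower than HMBA at each time for 19 clones, against 14.9%, and higher for 15, against 13.5%. These shares lie near those of all clones, and the chemicals' values were used in the choice, so no test was made.

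The clone ranked 1 had the largest shortfall of HMBA and of TSA relative to DMSO, by -1.26 and -0.92. The clone ranked 6 had the largest shortfall of TSA relative to HMBA, by -0.91. It stood at -2.28, -2.78, -2.31 and -1.63 at 6, 12, 24 and 36 h of TSA and at -1.31, -1.29, -1.56 and -1.22 with HMBA. The clone ranked 94 had the largest excess of TSA and of HMBA over DMSO, by 0.83 and 0.62. It stood at -0.95, -0.90, -0.49 and -0.26 at these times with TSA, against -1.05, -1.69, -1.82 and -1.36 with DMSO. The clone ranked 41 had the largest excess of TSA over HMBA, by 0.65, with -0.68, -0.63, -0.62 and -0.38 under TSA and -1.63, -1.16, -0.94 and -1.16 under HMBA. The DMSO arrays split the clones over their 2 slides in another way than the HMBA and TSA arrays, and 23 of the 100 clones had another slide number there.

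The first hour is the time whose values the rule did not use. After 1 h TSA gave the 100 clones a median of -0.25, HMBA one of -0.055 and DMSO one of -0.17. Over all clones tested these 3 medians were -0.013, 0.0097 and 0.0044. At most -1 at this time were 5 of the 100 with TSA, 1 with HMBA and 3 with DMSO, against 0.213%, 0.124% and 0.124% of all clones. With DMSO 89 of the 100 were below 0, against 48.8% of all clones tested. With TSA 92 were, against 53.3%, and with HMBA 59 were, against 48.7%. Below 0 with all 3 chemicals were 49 of the 100, against 16.2% of all clones, and 0 were above 0 with all 3, against 16.5%. The 1 h values may share their RNA before treatment with the later ones, and the part of this in the result was not tested.

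By array, the median of the 100 clones at 1 h was -0.10, -0.24, -0.25 and -0.22 with DMSO and -0.16, -0.16, -0.37 and -0.32 with TSA. With HMBA it was 0.13, -0.029, -0.15 and -0.24. All DMSO and TSA arrays thus had a median below 0, and 1 HMBA array had one above it. HMBA replicates 3 and 4 at 1 h, which share a dye orientation, correlated at r = -0.34 over all clones tested, so the direction of the HMBA values at 1 h is not settled. The other 29 pairs of arrays of 1 condition and orientation correlated between 0.253 and 0.685. With the sign of replicate 3 turned, 39 of the 100 were below 0 with all 3 chemicals (14.3% of all clones), and with that of replicate 4 turned 40 were (18.1%). With DMSO and TSA alone 81 were, against 30.2% of all clones tested. On the Cy5 arrays alone 33 were below 0 with all 3 chemicals (21.5% of all clones), and on the Cy3 arrays alone 52 were (17.1%).

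**Figure D4:**
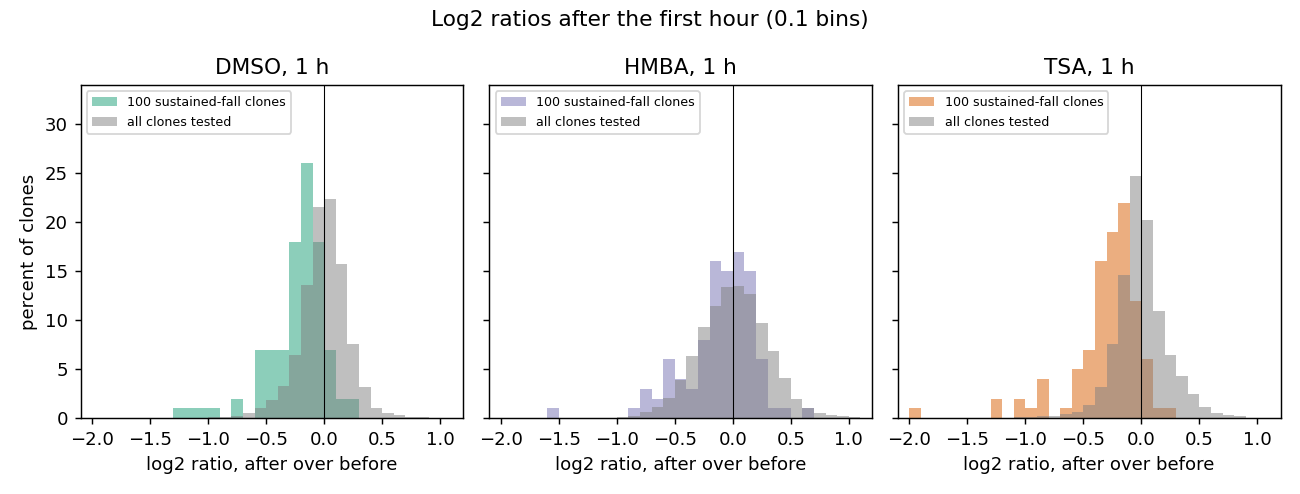
Share of clones (percent) by log2 ratio after 1 h, in bins of 0.1, for the 100 clones and all 14535 clones tested, with a panel for each chemical. With DMSO and TSA most of the 100 clones lie left of 0 (89 and 92 of them), and with HMBA, whose direction at 1 h is not settled, 59 do.

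The 1 h values were tested in a limma model across all clones, with the 3 condition values as the samples. After Benjamini-Hochberg adjustment 0 of the 14535 clones were called lower at p under 0.05, which is 0% of those tested, and the lowest adjusted p was 0.152. Other settings of the limma fit did make calls: 6 clones were called lower with plate-row medians removed (3 of the 100), 12 of 9567 with 4 values required per condition (3 of the 77 left) and 17 in an additive model over the 15 conditions (4 of the 100). The additive model took its spread from all 15 conditions, and the rule used the values of the later ones. Its 4 calls among the 100 are thus no separate support. Without DMSO 1 clone was called (1 of the 100), and without TSA 6 were (1 of the 100). At an unadjusted limma p under 0.05, 29 of the 100 clones were lower, against 3.92% of all clones, and 0 were higher, against 5.24%. With replicate 3 left out there were 18, against 2.22% of all clones, and without TSA 16, against 3.98%. With the sign of HMBA replicate 3 turned there were 17, against 2.00%. On the Cy5 arrays alone the number was 13, against 7.57% of all clones, and on the Cy3 arrays alone it was 30, against 4.85%. A clone that misses the threshold is not shown to be at its starting level.

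The share of the 6 h shortfall present at 1 h had a median of 0.26 on the log2 scale. The mean at 1 h was under 0.25 times the 6 h mean (log2 scale) for 49 clones, between 0.25 and 0.5 times for 39 and at least 0.5 times for 12. It was above 0 for 9 clones. It was at most -0.3 for 26, against 3.22% of all clones tested, and at most -0.5 for 9, against 0.482%. In 6 clones all 12 arrays at 1 h were below 0, against 0.22% of all clones. The rule chose the 6 h means to be low, which can make the shares of the 6 h shortfall smaller, so they are a description. The 1 h means and the 12 arrays include HMBA, whose direction at 1 h is not settled.

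The clone ranked 5, picked out for its 1 h values, had a mean of -1.52 at 1 h and -1.55 at 6 h. With the sign of HMBA replicate 3 turned its 1 h mean was -1.37, and with that of replicate 4 turned it was -1.06. After 1 h its log2 ratios were -0.89, -0.90, -1.24 and -1.22 on the DMSO arrays, -1.25, -1.34, -0.88 and -2.74 on the HMBA arrays and -1.83, -1.16, -2.50 and -2.28 on the TSA arrays. All 12 were below 0. Without normalization the deposited intensities on HMBA replicate 3 at 1 h were 949 after and 964 before treatment. On TSA replicate 1 at 1 h the intensity after treatment was 20.9. On DMSO replicate 3 at 12 h it was higher after treatment than before (185 against 98.3), with a log2 ratio of -0.64. The values of this clone thus depend in part on how the arrays were normalized. The limma estimate was -1.52 (SE 0.16, 95% interval -1.91 to -1.13), with an adjusted p of 0.152. The clone was picked out on these same values, and the interval does not allow for that choice. With DMSO and HMBA the clone stood lower at 36 h, at -1.91 and -2.01, while with TSA it stood at -1.27. H3035B01 averaged -0.99 at 1 h (SE 0.12, 95% interval -1.27 to -0.71), also with a limma adjusted p of 0.152. With plate-row medians removed its limma adjusted p was 0.0499, and over all alternatives run it lay between 0.0499 and 0.584. H3140F01 averaged -0.57 (SE 0.14), with a limma adjusted p of 0.368.

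Clones with large later shortfalls could also be near their starting level at 1 h. The clones ranked 10 and 11, on different plates, stood at -0.0028 and -0.012 after 1 h of DMSO, 0.064 and 0.079 after HMBA and -0.16 and -0.098 after TSA. At 36 h they were at -1.14 and -1.06 with DMSO, -1.34 and -1.19 with HMBA and -1.31 and -1.26 with TSA. Their 15 values were the most alike of all 4950 pairs among the 100, with a root mean square difference of 0.090 log2 units, where the median pair differed by 0.42. The files do not say whether both derive from a single gene.

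The clones were compared at 1 h with 2 sets that the rule left out. Of the 643 clones that met both limits but ranked lower, 40.7% were below 0 with all 3 chemicals, and of the 734 that met the 6 h limit but not that at 36 h, 36.4% were. The share among the 100 was 49%. The medians of the 1 h mean were -0.17 in the 100, -0.12 in the 643 and -0.11 in the 734. Values below 0 at 1 h were thus also common in both other sets, and the difference between the sets was not tested.

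Other properties of the spots were described without a test. Before treatment the spots of the 100 clones were at a median brightness percentile of 65.1 among the clones an array listed, where all clones tested had a median of 47.8. Above the 75th percentile were 39 of the 100 and 21.6% of all clones, and below the 25th were 6 of the 100 and 21.1% of all clones. Spot brightness depends on the clone as well as on its transcript, so it ranks no transcript levels. The part of brightness in the choice of clones was not tested.

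The clones were spread over the print plates. They came from 81 of 238 plates, with 1 clone on 65 plates, 2 on 13 and 3 on 3. They lay in 98 plate rows, at most 2 in a row, and 3 pairs were in touching wells. Rows D and F each held 18 clones, where 12.9% of all clones tested were in each, and row A held 7, where 11.6% were. Identifiers starting with H3 made up 76 of the 100 and 65.4% of all clones tested. On DMSO arrays these 76 were on 1 slide and the other 24 on another. The 24 clones kept their slide number on the HMBA and TSA arrays, and their medians over the 4 times were -0.65 with TSA, -0.68 with HMBA and -0.68 with DMSO. For 53 clones, which also kept it, the medians for TSA, HMBA and DMSO were -0.76, -0.76 and -0.61. For the 23 whose number differed they were -0.75, -0.67 and -0.74. DMSO thus stood nearest to 0 of the 3 chemicals in the 53. It did not in the 24, which also kept their number, nor in the 23. The part of the slides in these values was not tested.

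When the median of each plate row was removed from each array, the rule took 53 of the 100 again, and 87 still met both limits. The part of plate rows in the values of single clones was not tested. With the scanner intensities normalized here in place of the deposited ratios, 94 were taken again, and all 100 remained below 0 in the 12 later conditions.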

How the data were processed

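RNA was compared on 2-colour cDNA arrays in 60 hybridizations of 15 conditions. The authors deposited a table with 1 linear ratio per clone and array, after over before treatment, whose centring and background correction are not given in the sources used here; array medians of the ratio ran from 0.924 to 1.07. The deposited scanner files give a linear intensity after and before treatment for each spot, on 2 slides per array, per the file headers, with no background or flag columns. The ratios were turned to log2. They correlated with values normalized here from the intensities at r between 0.899 and 0.996 per array. Both come from the same deposit, so this cannot show whether an array was labelled in reverse. An array listed between 16550 and 21087 clones, and the number of arrays limits the precision. The 4 arrays of a condition counted as 1 sample.

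The 100 clones follow the stated rule. At 1 h an intercept was fitted to the 3 condition values of all 14535 clones with limma 3.58.1 in R 4.3.3, with 2 residual degrees of freedom before moderation and Benjamini-Hochberg adjustment over all clones. The fit was tested on simulated data. As an alternative, intensities were corrected by normexp (offset 50) and normalized by loess (span 0.3) within each slide. Other alternatives changed centring, scale, plate-row medians, the filter, replicates, dyes, chemicals and the limits. With no gene names, the naming rule allowed the identifiers of the clones ranked first and second. Ranks 5, 20, 75 and those named for differences between chemicals or for likeness were chosen after their values were seen. The gene lists prepared for named clones could not be used. The members and lists were chosen with earlier results of these data known. Nothing states separate cultures within a condition, so p-values measure the spread between the conditions.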

Additional observations from a re-analysis of the deposited data

Results flagged for a closer look

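Far arrays were looked for in 45 groups of technical arrays (the median of the 100 clones and the values of H3035B01 and H3140F01 in 15 conditions). A group held 4 arrays, except that H3035B01 with HMBA at 6 h had 3 listed. By Dixon's criterion for 4 arrays, 2 groups held an array far from the others, where chance gives about 1 in 20. With DMSO at 24 h the median of the 100 clones was -0.82 on replicate 1 and between -0.69 and -0.67 on the other arrays. With HMBA at 6 h H3140F01 was at -1.55 on replicate 2 and at -1.54 on the others, a gap that stands out only because these arrays differed by so little.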

How the results depend on the processing

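The rule took between 67 and 79 of the 100 clones again without replicate 1, 2, 3 or 4. It took 53 with plate-row medians removed, 46 on the Cy5 arrays alone, 52 on the Cy3 arrays alone, 58 without DMSO, 61 without HMBA, 46 without TSA and 58 when ranked by the mean of the 12 values. Between 88 and 97 were taken again with the scanner intensities, centred or scaled arrays or a filter of 1 value per condition. The count was 77 with 4 values per condition, 76 with a 6 h limit of -0.5 and 73 with a 36 h limit of 0.75. These 3 stricter settings took every member that still met them, so their counts were fixed by the setting. The limma count of clones among the 100 called lower at 1 h, 0 as reported and with any replicate left out, was 3 with plate-row medians removed, 3 with 4 values per condition, 1 without DMSO 1 h, 1 without TSA 1 h and 4 in the additive model over 15 conditions (counts over all clones stand beside the test). The additive model also drew on later values that the rule used. The settings without DMSO or TSA at 1 h were chosen after seeing the data. At an unadjusted limma p under 0.05 the count was between 18 and 29 with a replicate left out, 13 on the Cy5 arrays, 17 with the sign of HMBA replicate 3 turned and 16 without TSA 1 h. The number below 0 at 1 h with every chemical was between 40 and 52 with a replicate left out. It was 33 on the Cy5 arrays alone, against 21.5% of all clones, and 52 on the Cy3 arrays alone, against 17.1%. With the sign of HMBA replicate 3 turned it was 39. Without HMBA 1 h it was 81, a setting that asks for 2 chemicals in place of 3. The median of the 1 h mean kept its sign under every setting run, between -0.26 and -0.11. No paired analysis was possible because the replicate numbers mark technical arrays that were averaged before the fit. Causes of these shifts were not tested. The arrays have no background measure, so a dim spot's ratio may understate a shortfall.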
